A study of Mus musculus with 8 samples.

Results

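DEAD and DEAH box proteins are helicases that spend ATP to open RNA duplexes and to rebuild RNA-protein complexes. DEAD box (DDX) proteins pry short duplexes apart where they bind, whereas many DEAH box (DHX) proteins walk along a strand and pull structures apart from a distance, as several spliceosomal helicases do. Together they serve splicing, ribosome assembly, mRNA export and translation, and embryonic stem cells (ESCs) that divide fast need all of these steps. eIF4A2, the protein pulled down here, is a DEAD box helicase of translation initiation whose gene symbol keeps it off the list. The genes described were the protein-coding genes of the count table whose mouse symbol starts with *Ddx* or *Dhx* and a digit, without *Ddx6* and *Ddx3y*. They were 51 of 52550 genes: 35 DDX and 16 DHX genes. A level of at least 1 CPM (counts scaled to the gene reads of each library) in all 4 inputs was reached by 49 of them, 34 DDX and 15 DHX genes, and by 10754 genes in total. All values are levels of the mRNAs that code for the helicases, and the data used here hold no protein measurements.

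The experiment asked which mRNAs come down with eIF4A2, by sequencing RNA from anti-Flag immunoprecipitates (RIP) beside RNA of cell lysate (input). All 8 libraries were from *Eif4a2* knockout (KO) ESCs, in 4 groups of 2. Input EV and RIP EV came from cells with the empty vector (EV), which have no Flag-tagged protein. Input eIF4A2 FL and RIP eIF4A2 FL came from cells in which a transposon vector supplied Flag-tagged full-length (FL) eIF4A2, and their replicates are 2 clones. The isoform is not in the sample labels and was taken from the paper, and 1 field of the label of RIP eIF4A2 FL replicate 2 names Eif4a3 where the others name Eif4a2. The EV replicates are not stated to be separate clones or cultures, so p-values of comparisons with EV libraries measure only how far these libraries lie apart, and for EV that may be technical. The cells grew with 1.5 µM CHIR99021, 0.5 µM PD0325901 and 10 ng/ml LIF, and each pull-down took 5 µg of antibody and 3 h.

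*Eif4a2* itself had 53.8 and 94.2 CPM in input EV, 86.8 and 69.1 in input eIF4A2 FL, 56.7 and 126 in the RIP EV pair, and 76.7 and 47.4 in RIP eIF4A2 FL (replicates 1 and 2, as in all lists of values). The groups overlapped, and since 3′ tags counted per gene are also read from a mutated transcript or from a vector that carries the same 3′ end, they check neither the KO nor the return of the protein. The inputs carried naive ESC markers: *Esrrb* had 483 and 368 CPM in input EV and 575 and 616 in input eIF4A2 FL, and *Tfcp2l1* 593, 577, 979 and 773 in the same order. Of the genes of the formative state *Fgf5* had 0, 0.312, 0 and 0 CPM in the inputs, but *Dnmt3b* had 150, 93.9, 135 and 76.0 and *Otx2* 15.5, 15.6, 54.1 and 16.9. The fibroblast genes *Col3a1*, *Dcn* and *Lum* had 0 counts in all 8 libraries, and *Thy1* had 0.275, 5.93, 5.19 and 2.73 CPM in the inputs. *Pou5f1*, which ESCs express strongly, had only 19.7, 9.05, 15.8 and 5.78 CPM in the inputs, whereas *Sox2* had 317, 302, 223 and 221.

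Helicase reads were counted out of 7269765 and 3204369 gene reads in input EV, 4620862 and 6225787 in input eIF4A2 FL, 2044853 and 3345151 in the RIP EV pair, and 11206420 and 9976801 in RIP eIF4A2 FL. Of all reads in the count table, with those not assigned to a gene included, 19.9% and 29.9% fell on genes in RIP EV. In RIP eIF4A2 FL 68.2% and 68.1% did. The shares were 40.9% and 30.0% in input EV and 41.2% and 46.4% in input eIF4A2 FL. Reads that fell on no annotated gene made up 45.8% and 29.7% in RIP EV and 3.30% and 4.13% in RIP eIF4A2 FL. In the inputs they made up 8.58% to 17.6%. The RIP EV libraries were the least alike: the biological coefficient of variation was 171% in RIP EV, 30.1% in input EV, 28.1% in input eIF4A2 FL and 23.1% in RIP eIF4A2 FL. Of the 49 tested helicases, 17 were within 2-fold between the RIP EV replicates, against 40 in input EV, 41 in input eIF4A2 FL and 48 in RIP eIF4A2 FL, where of all tested genes 24.2%, 83.9%, 87.4% and 91.9% were, in the same order. In RIP EV 6 and 3 of the tested helicases had 0 counts (12.2% and 6.12%, where 43.4% and 23.7% of all tested genes had 0). The helicases were also higher in the inputs than most genes, and the difference was not tested. Because the RIP EV replicates lay so far apart, each comparison was fitted on its own 4 libraries, and results that need RIP EV rest on less.

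QuantSeq reads 1 tag near the 3′ end of each transcript, so CPM was compared between helicase genes without scaling by length. By mean CPM of the 4 inputs, the DDX gene *Ddx21* stood first among the 51 (524 CPM), followed by *Ddx27* (384), *Ddx17* (325), *Ddx24* (261) and *Ddx46* (257). In input EV replicate 2, though, *Ddx27* (325) was above *Ddx21* (300). *Ddx46* had 288 and 180 CPM in input EV and 427 and 133 in input eIF4A2 FL, so its place rested on the first input eIF4A2 FL library. *Ddx21*, *Ddx27* and *Ddx24* code for nucleolar helicases of ribosome assembly, *Ddx17* for a cofactor of transcription and microRNA processing, and *Ddx46* for a helicase that readies the U2 particle for splicing. *Dhx29*, whose protein helps the small ribosomal subunit through structured leaders, had the highest mean of the DHX genes (243 CPM), ahead of *Dhx15* (195), *Dhx38* (144) and *Dhx16* (141) of the spliceosome, although in input EV *Dhx15* (240 and 170) was above *Dhx29* (233 and 164). The median tested DDX gene had 74.6, 61.5, 76.8 and 56.1 CPM in the inputs, and the median DHX gene 53.9, 40.6, 41.1 and 41.3. All tested genes had medians of 21.0, 23.1, 21.6 and 22.2 CPM, so both families lay above the middle of the expressed genes.

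Between RIP eIF4A2 FL and its input, 5 of 49 helicases were higher in the RIP and 0 were lower (edgeR quasi-likelihood, Benjamini-Hochberg adjusted p < 0.05). Of all 10754 tested genes 8.44% were higher and 8.46% lower. The helicases that rose were 4 of 15 DHX genes and 1 of 34 DDX genes. By the same edgeR test at an unadjusted p below 0.05, 16 helicases were higher (17.3% of all tested genes) and 2 lower (16.7%). Counted by order alone, both RIP libraries had more CPM than both inputs for 30 helicases, 16 DDX and 14 DHX genes (45.8% of all tested genes did), and less for 3, all of them DDX genes (18.7%). After TMM scaling 23 helicases had both RIP libraries above both inputs, 12 DDX and 11 DHX genes (31.6% of all tested genes), and 4 DDX genes had the reverse order (30.1%).

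The families were compared by how far their mRNAs moved from input to RIP in the eIF4A2 FL cells, and the difference between them was not tested. The median log2 change was 0.81 for the 15 DHX genes and 0.14 for the 34 DDX genes, against 0.02 for all tested genes. All 15 tested DHX genes were above 0, as were 23 of the 34 DDX genes and 5455 of all 10754 tested genes. Not all DHX genes stayed there: *Dhx33* was at -0.20 without input eIF4A2 FL replicate 1. With library size alone the median of all genes became 0.32, and those of the DHX and DDX genes 1.13 and 0.46, so both families stayed on the same side. The DHX median exceeded the DDX median by 0.67 in log2, by 0.54 to 0.72 when single libraries were left out, and in the same direction under every scaling. Without input eIF4A2 FL replicate 2 the DDX median was -0.01 and the DHX median 0.53, and without input eIF4A2 FL replicate 1 they were 0.46 and 1.17, with 0.04 for all genes in each case. The place of both families thus moved with the input, and the distance between them moved less.

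**Figure D1:**
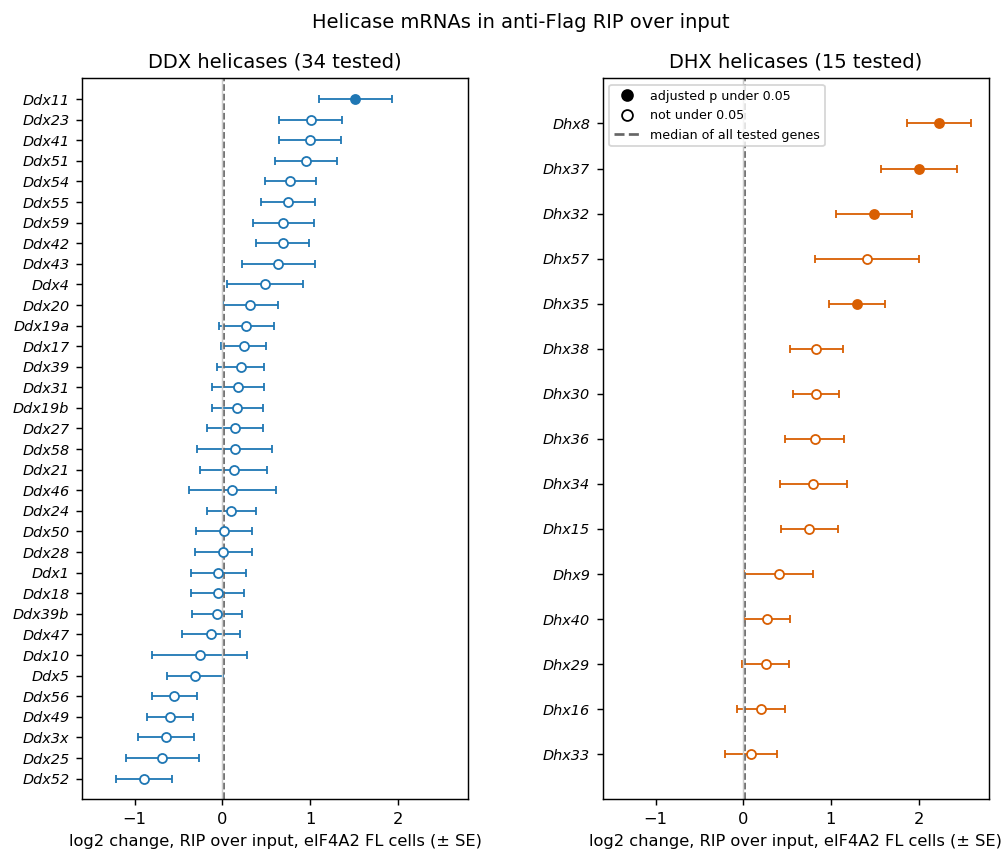
Log2 change from input to RIP in the eIF4A2 FL cells for the tested helicases of each family, with standard errors, from edgeR on the 4 libraries. The DHX genes sit to the right of the middle of all tested genes.

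With all 4 libraries the gene with the largest rise among the helicases was *Dhx8*, whose protein releases finished mRNA from the spliceosome. It had 41.1 and 24.1 CPM in input eIF4A2 FL and 154 and 226 in RIP eIF4A2 FL, 53.9 and 40.3 in input EV, and 0.489 and 153 in RIP EV. Both RIP eIF4A2 FL values were above all inputs, while RIP EV ran from almost none up to the level of RIP eIF4A2 FL replicate 1. The log2 change from input to RIP in the eIF4A2 FL cells was 2.23 ± 0.37 (standard error), with an edgeR quasi-likelihood Benjamini-Hochberg adjusted p of 0.00601 (1.52e-09 to 0.886 over the alternatives). The gene ranked 58 of 10754 by this change, and the call held with each single library left out (log2 1.86 to 2.73). It was not the largest rise in every such setting. *Dhx57* was above it without input eIF4A2 FL replicate 1 (2.86), and *Dhx37* without input eIF4A2 FL replicate 2 (2.32) or RIP eIF4A2 FL replicate 2 (2.09). *Dhx35*, whose protein is found in the active spliceosome, had 9.52 and 9.64 CPM in input eIF4A2 FL and 30.0 and 28.3 in RIP eIF4A2 FL, 12.7 and 4.68 in input EV, and 33.7 and 16.4 in RIP EV. Both RIP groups were above both inputs by CPM. In the EV cells its log2 change of 1.46 ± 1.42 did not pass (adjusted p 0.649 by edgeR quasi-likelihood with Benjamini-Hochberg). In the eIF4A2 FL cells the log2 change of *Dhx35* was 1.30 ± 0.32 (adjusted p 0.0235 by the same test, 0.00640 to 0.797 over the alternatives). The call was lost without RIP eIF4A2 FL replicate 1 (adjusted p 0.0939) or replicate 2 (0.102), while the log2 change stayed between 1.26 and 1.34.

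*Dhx37* codes for the helicase that frees U3 RNA from the young small ribosomal subunit. It had 2.16 and 3.37 CPM in input eIF4A2 FL and 15.3 and 12.6 in RIP eIF4A2 FL, 7.57 and 1.87 in input EV, and 0.489 and 76.5 in RIP EV. The RIP eIF4A2 FL values were above all 4 inputs, and the RIP EV replicates lay on either side of every other group. The log2 change was 2.01 ± 0.43 with an adjusted p of 0.0154 by edgeR quasi-likelihood and Benjamini-Hochberg (0.000826 to 0.933 over the alternatives), and the call held with any single library left out (log2 1.78 to 2.32). *Ddx11*, the DDX gene that rose, is named with the DEAD box genes although its protein is a DNA helicase of sister chromatid cohesion. It had 3.90 and 6.75 CPM in input eIF4A2 FL and 15.8 and 22.1 in RIP eIF4A2 FL, 19.3 and 7.18 in input EV, and 18.6 and 19.1 in RIP EV. RIP eIF4A2 FL was above its own input but level with RIP EV and with the first input EV library. The log2 change was 1.52 ± 0.41 with an adjusted p of 0.0338 by edgeR quasi-likelihood and Benjamini-Hochberg (0.00478 to 0.697 over the alternatives). The call was lost without input eIF4A2 FL replicate 1 (log2 1.23) or without RIP eIF4A2 FL replicate 2 (log2 1.20).

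*Dhx32*, a DHX gene whose protein has no settled role, was the last of the 5. It had 8.22 and 3.85 CPM in input eIF4A2 FL and 19.5 and 22.1 in RIP eIF4A2 FL, 10.0 and 9.05 in input EV, and 0 and 38.9 in RIP EV. RIP eIF4A2 FL was above all inputs, and the RIP EV replicates again lay on either side. The log2 change was 1.49 ± 0.44 with an adjusted p of 0.0441 by edgeR quasi-likelihood and Benjamini-Hochberg (0.00312 to 1 over the alternatives), called in 5 of 12 alternatives. The call was lost without input eIF4A2 FL replicate 2 (log2 0.98), without RIP eIF4A2 FL replicate 1 (1.61) and without RIP eIF4A2 FL replicate 2 (1.34). The change grew to 2.17 without input eIF4A2 FL replicate 1. The last exon of *Dhx32* also shares 204 bases with *Bccip* on the other strand, so its tags are less certain than those of the other genes that rose. None of the 5 was called when all 8 libraries were fitted together, with edgeR or with DESeq2, where the spread of RIP EV enters the error.

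**Figure D2:**
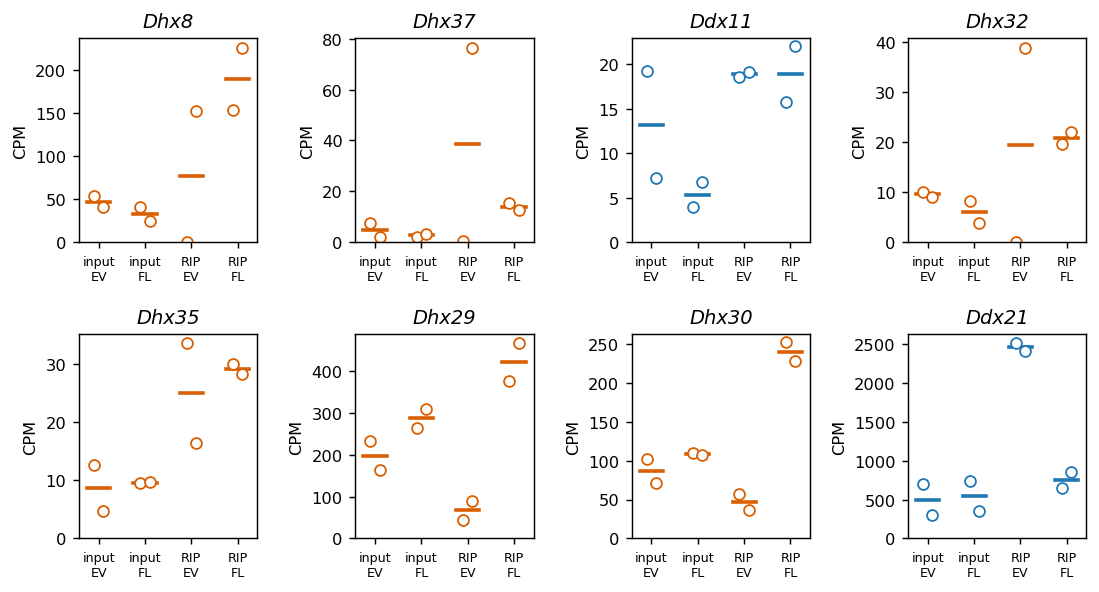
CPM of single helicase genes in each of the 8 libraries. The RIP EV replicates lie far apart for *Dhx8*, *Dhx37* and *Dhx32*.

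Other DHX genes were higher in the RIP eIF4A2 FL libraries without passing the test. Nearest to passing was *Dhx30* (log2 0.83 ± 0.26, edgeR quasi-likelihood, Benjamini-Hochberg adjusted p 0.0532), called in 3 of 12 alternatives. *Dhx36* had a log2 change of 0.81 ± 0.34, and both were chosen after their values were seen. *Dhx57*, with no settled role, had 8.44 and 1.93 CPM in input eIF4A2 FL and 14.5 and 19.1 in the RIP, a log2 change of 1.42 ± 0.59. *Dhx38*, whose protein drives the second step of splicing, had 162 and 108 CPM in the input and 302 and 296 in the RIP (log2 0.83 ± 0.30). *Dhx15*, which takes spent spliceosomes apart, had 225 and 144 CPM in the input and 337 and 436 in the RIP (log2 0.75 ± 0.32). *Dhx16*, which acts at the first step of splicing, had 152 and 121 CPM against 215 and 176, a log2 change of 0.20. For each of these genes the RIP values did not overlap those of the input, but TMM scaling, which lowers RIP values against inputs, shrank the smaller differences. Leaving out input eIF4A2 FL replicate 1 raised the log2 change of *Dhx57* to 2.86, of *Dhx38* to 1.22 and of *Dhx15* to 1.17, and these 3 passed the test there, while without replicate 2 the changes were 0.64, 0.53 and 0.43.

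The DDX genes of splicing and ribosome assembly were mixed. *Ddx23*, whose protein acts when U6 takes the place of U1 on the intron, had 15.4 and 9.32 CPM in input eIF4A2 FL and 28.6 and 32.7 in the RIP, a log2 change of 1.01 ± 0.36. *Ddx41*, coding for another spliceosome protein that also senses foreign DNA, had 20.1 and 26.0 CPM against 39.9 and 73.5 (log2 1.00 ± 0.35). Both were higher in each RIP library than in each input, and neither passed the test, although each was called in 3 of 12 alternatives. With single libraries left out the log2 change ran from 0.64 to 1.46 for *Ddx23* and from 0.43 to 1.40 for *Ddx41*. Of the ribosome assembly genes, *Ddx51* (log2 0.95 ± 0.35), *Ddx54* (0.77 ± 0.29) and *Ddx55* (0.75 ± 0.31) were likewise higher in each RIP library by CPM. None of them passed the test, and *Ddx54* and *Ddx55* were chosen after their values were seen. *Ddx52*, whose protein acts in the small ribosomal subunit's assembly, had 93.5 and 56.1 CPM in the input and 49.7 and 50.3 in the RIP. Its log2 change of -0.90 ± 0.32 did not pass the test. Without input eIF4A2 FL replicate 2 the change was -1.26 and passed (edgeR quasi-likelihood, Benjamini-Hochberg adjusted p 0.00893, up to 0.737 over the alternatives), and without replicate 1 it was -0.42. *Ddx49*, of the same pathway, had 92.2 and 111 CPM against 91.1 and 74.8 (log2 -0.60), and *Ddx3x*, a helicase of scanning ribosomes and stress granules, had 168 and 101 against 106 and 110 (log2 -0.64). For *Ddx3x* the groups overlapped, though without input eIF4A2 FL replicate 2 its change was -0.998 and passed the same test (adjusted p 0.0310, up to 1 over the alternatives), and for *Ddx49* they were apart by about 1 CPM.

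By role, the 10 spliceosome helicases had a median log2 change from input to RIP eIF4A2 FL of 0.79, with 2 called higher and 9 above 0. The 16 helicases of ribosome assembly had a median of 0.09, with 1 called higher and 10 above 0. Of all 10754 tested genes 8.44% were called higher and 5455 were above 0, with a median of 0.02. Medians were 0.53 for the 4 of translation and cytoplasmic mRNA, 0.24 for the 5 cofactors of transcription and microRNA processing, 0.19 for the 4 of mRNA export and 0.49 for the 3 of the germline. The ranges of splicing (-0.06 to 2.23) and ribosome assembly (-0.90 to 2.01) overlapped and the difference was not tested. Within the spliceosome the DHX genes had log2 changes of 2.23 (*Dhx8*), 1.30 (*Dhx35*), 0.83 (*Dhx38*), 0.75 (*Dhx15*) and 0.20 (*Dhx16*), and the DDX genes 1.01 (*Ddx23*), 1.00 (*Ddx41*), 0.69 (*Ddx42*), 0.11 (*Ddx46*) and -0.06 (*Ddx39b*). The 2 families overlapped there, and no test was made within a role. Among the genes of ribosome assembly only *Dhx33* and *Dhx37* are DHX genes.

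The box that names the families sits in the ATP-binding core, and its codons were looked for in the coding sequence of each gene. The 4 amino acids DEAD were found in 26 of the 35 DDX genes, and DEAH in 8 of the 16 DHX genes and in *Ddx11*. The windows below are 30 bases of coding sequence (GRCm38, GENCODE M21 models) from genes described here, with the 12 bases of the box in capitals; they show that the *Ddx11* box reads as that of *Dhx8*, *Dhx35* and *Dhx37* does, and that *Ddx21* differs from *Ddx23* in the residue before the last. They lie at chr11:101752131-101752160 (plus strand, exon 14) for *Dhx8*, chr2:158818266-158818295 (plus, exon 7) for *Dhx35*, chr5:125426708-125426737 (minus, exon 8) for *Dhx37*, chr17:66138165-66138194 (plus, exon 10) for *Ddx11*, chr15:98648625-98648654 (minus, exon 13) for *Ddx23*, and chr10:62591872-62591901 (minus, exon 6) for *Ddx21*.
Dhx8: attatgttgGATGAAGCACACgagaggacc
Dhx35: atcatgctgGATGAAGCCCACgagaggacc
Dhx37: gtgatcattGACGAAGCCCATgagcggagc
Ddx11: gtcattattGACGAGGCTCACaacctgatc
Ddx23: gtggttctgGATGAGGCGGATaggatgatt
Ddx21: gttgtcctgGATGAAGTCGACcagatgttg

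Summed over genes, DDX mRNAs made up 4309 and 3075 CPM in input EV, 4340 and 3177 in input eIF4A2 FL, 7935 and 7970 in the RIP EV pair, and 4591 and 5188 in RIP eIF4A2 FL. DHX mRNAs made up 1262 and 1041, 1266 and 1045, 1077 and 1481, and 2204 and 2272 CPM in the same order. The DDX sum was highest in RIP EV and the DHX sum highest in RIP eIF4A2 FL, and in each case both libraries lay above all 6 others. Sums of CPM depend on what else is in a library, but the ratio of the families does not. DHX reads per 100 DDX reads were 29.3 and 33.9 in input EV, 29.2 and 32.9 in input eIF4A2 FL, 13.6 and 18.6 in the RIP EV pair, and 48.0 and 43.8 in RIP eIF4A2 FL. The ratio did not overlap between inputs and either RIP: it was higher by 14.9 in RIP eIF4A2 FL than in its input and differed by -15.5 between RIP EV and its input.

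A single gene carried much of the DDX sum in RIP EV. *Ddx21* made up 31.8% and 30.3% of DDX reads there, against 16.2% and 9.74% in input EV, 17.1% and 11.2% in input eIF4A2 FL, and 14.1% and 16.4% in RIP eIF4A2 FL. Without *Ddx21* the DHX reads per 100 DDX reads were 35.0 and 37.5 in input EV, 35.2 and 37.1 in input eIF4A2 FL, 19.9 and 26.6 in the RIP EV pair, and 55.9 and 52.4 in RIP eIF4A2 FL. The order of the groups stayed, so the ratio did not hang on *Ddx21* alone. Other abundant DDX genes that were highest in RIP EV, *Ddx46*, *Ddx5* and *Ddx10*, were not taken out. The family medians of the log2 change from input EV to RIP EV were close, 0.68 for DDX and 0.66 for DHX genes. Without RIP EV replicate 2 they were 0.51 and -1.45.

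**Figure D3:**
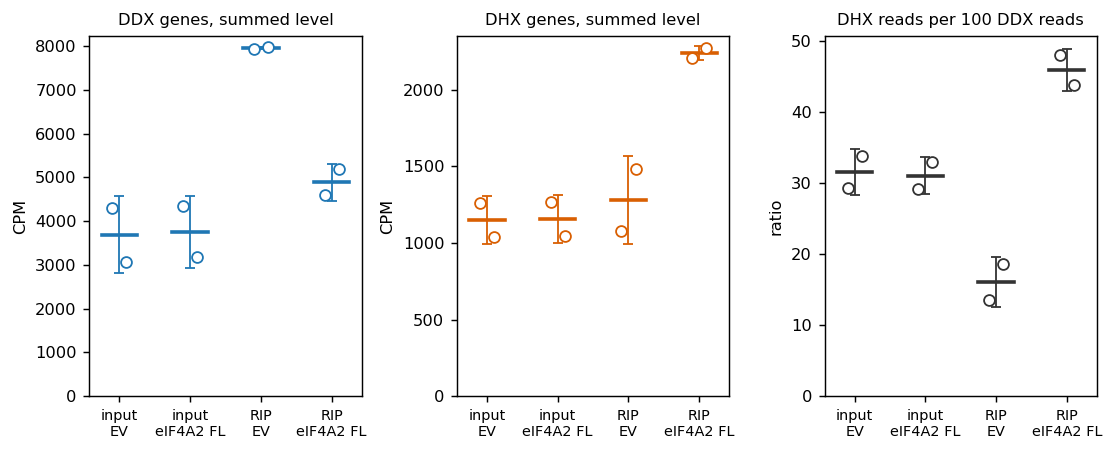
Summed CPM of the DDX and DHX families and DHX reads per 100 DDX reads in each of the 8 libraries, with means and SD. The ratio is lowest in RIP EV and highest in RIP eIF4A2 FL.

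RNA that came down without a tagged protein was compared with its input in the EV cells. Here 0 of 49 helicases were called higher and 0 lower by edgeR quasi-likelihood with Benjamini-Hochberg adjustment, as were 0% and 0% of all tested genes. At an unadjusted p below 0.05, 8 helicases were higher, all of them DDX genes (4.28% of all tested genes), and 3 were lower, 2 DDX and 1 DHX gene (25.2%). DESeq2 on the same 4 libraries called 5 DDX genes higher and 1 lower (of all tested genes 305 and 487), and edgeR on all 8 libraries called 6 higher and 2 lower with 1 DHX gene lower (of all 484 and 2828). DESeq2 on all 8 called 11 DDX genes higher and 2 lower, again with 1 DHX gene lower (of all 1075 and 3442). By order of CPM alone both RIP EV libraries were above both inputs for 18 helicases, 16 DDX and 2 DHX genes (14.6% of all tested genes), and below for 8, 6 DDX and 2 DHX genes (44.9%). The median log2 change was -0.65 for all genes, 0.68 for DDX genes and 0.66 for DHX genes. Left without RIP EV replicate 2, the DHX median was -1.45 and that of all genes -3.14, while the DDX median was 0.51. Both family medians stood above that of all genes in each setting, and the sign of the DHX median differed between settings.

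*Ddx21*, whose helicase works on pre-ribosomal RNA and on transcription by polymerases I and II, had 2521 and 2413 CPM in RIP EV, 699 and 300 in input EV, 742 and 357 in input eIF4A2 FL, and 650 and 849 in RIP eIF4A2 FL. Both RIP EV values were more than 2 times any other. The log2 change from input EV to RIP EV was 2.25 ± 0.53, with an adjusted p of 0.0736 by edgeR quasi-likelihood and Benjamini-Hochberg (4.88e-05 to 0.663 over the alternatives), and 1.67 to 3.04 with single libraries left out. *Ddx46* of the U2 step, with 750 and 888 CPM in RIP EV and at most 470 in any other library, had a like pattern. So did *Ddx5*, a cofactor of transcription and microRNA processing (588 and 517, at most 261 elsewhere), and *Ddx10*, a helicase of the small ribosomal subunit (546 and 504, at most 327). These 3 were chosen after their values were seen. For all 4 genes the RIP EV replicates were close together, unlike those of *Dhx8* or *Dhx37*.

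*Ddx43*, a germline gene that many tumours also express, was chosen after its values were seen. It had 136 and 24.5 CPM in RIP EV, 4.81 and 6.87 in input EV, 4.98 and 5.30 in input eIF4A2 FL, and 11.7 and 8.12 in RIP eIF4A2 FL. *Ddx41* had 210 and 55.6 CPM in RIP EV against 28.9 and 21.8 in input EV. For both genes RIP EV did not overlap its input, although its replicates were more than 3 times apart. The log2 changes from input EV to RIP EV were 3.75 for *Ddx43* (2.06 without RIP EV replicate 1, 4.54 without replicate 2) and 2.34 for *Ddx41* (1.08 and 2.99), and neither passed the test.

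RIP eIF4A2 FL was then set against RIP EV, a comparison that shares its RIP libraries with the others. By edgeR quasi-likelihood with Benjamini-Hochberg adjustment 0 of 49 helicases were higher and 0 lower, as were 0% and 0% of all tested genes. At an unadjusted p below 0.05, 5 helicases were higher, 3 DDX and 2 DHX genes (24.0% of all tested genes), and 6 were lower, all DDX genes (5.31%). DESeq2 on the 4 libraries called 1 DDX and 2 DHX genes higher and 6 DDX genes lower (of all tested genes 806 higher and 523 lower). With edgeR on all 8 libraries these were 2, 2 and 5 (of all 2664 and 587), and with DESeq2 on all 8 libraries 3, 2 and 9 (of all 3270 and 1128). By order of CPM 10 helicases were above, 6 DDX and 4 DHX genes (51.9% of all tested genes), and 11 DDX genes were below (12.1%). The median log2 difference was 0.67 for all genes, -0.62 for DDX genes and 0.06 for DHX genes. With library size alone these were 0.91, -0.39 and 0.32, and the DHX median was -0.01 without RIP eIF4A2 FL replicate 1 and 2.17 without RIP EV replicate 2. Both family medians lay below that of all genes in each setting. With all 4 libraries 6 of the 34 DDX genes, *Ddx25* and *Ddx59* among them, and 4 of the 15 DHX genes were above the median of all genes. *Ddx21*, *Ddx46*, *Ddx5* and *Ddx10* were below it.

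In this comparison *Dhx29* and *Dhx30* stood out among the DHX genes. *Dhx29* had 43.5 and 90.0 CPM in RIP EV and 377 and 468 in RIP eIF4A2 FL, with 233 and 164 in input EV and 266 and 310 in input eIF4A2 FL. *Dhx30*, which codes for a helicase of mitochondrial ribosome assembly and was chosen after its values were seen, had 57.7 and 36.2 CPM in RIP EV, 252 and 228 in RIP eIF4A2 FL, 102 and 70.8 in input EV, and 110 and 108 in input eIF4A2 FL. In both genes RIP eIF4A2 FL was above every other library and RIP EV below every other. The log2 difference between the RIPs was 2.42 ± 0.53 for *Dhx29* (adjusted p 0.0650 by edgeR quasi-likelihood and Benjamini-Hochberg, 1.61e-06 to 0.803 over the alternatives) and 2.13 ± 0.45 for *Dhx30* (0.0650, 4.36e-06 to 1). For *Ddx21* it was -1.95 ± 0.25 (0.0650, 1.05e-07 to 0.370). All 3 were above 0.05 by the edgeR test on 4 libraries.

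Whether the change from input to RIP differed between the cell lines was tested with an interaction on all 8 libraries, added after the data had been seen. For each gene this fit took 1 spread for all groups. The biological coefficient of variation was 171% in RIP EV and at most 30.1% in the other groups. The p-values of the interaction may therefore be too small, since it needs RIP EV. By edgeR quasi-likelihood with Benjamini-Hochberg adjustment 2 of 49 helicases, both DDX genes, were higher in the eIF4A2 FL cells (19.2% of all tested genes) and 0 were lower (2.10%). The median interaction in log2 was -0.71 for DDX genes, 0.20 for DHX genes and 0.64 for all tested genes. DESeq2 called 2 DDX and 2 DHX genes higher and 4 DDX genes lower (of all 2631 higher and 608 lower). The 2 genes called by edgeR were *Ddx59* and *Ddx25*. For *Dhx29* the interaction in log2 was 1.86 ± 0.59 (edgeR quasi-likelihood, Benjamini-Hochberg adjusted p 0.0735, 0.00129 to 0.237 over the alternatives) and for *Dhx30* 1.74 ± 0.57 (0.0837, 0.00440 to 0.267). *Ddx5* (-1.70) and *Ddx39b* (-2.05), both chosen after their values were seen, had the opposite sign and did not pass, and so had *Ddx52*, -1.76 (0.141, 0.00309 to 0.423), since its RIP EV values of 91.0 and 196 CPM were above the 73.2 and 81.5 of input EV while its RIP eIF4A2 FL was below its input. For *Dhx29*, *Dhx30* and *Ddx52* the order of RIP and input was opposite in the 2 cell lines, and the difference did not pass the test.

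*Ddx25*, a helicase gene of male germ cells whose protein exports and stores mRNA, had 16.9 and 22.8 CPM in input EV, 11.0 and 22.8 in input eIF4A2 FL, 0 and 0 in the RIP EV pair, and 10.1 and 15.7 in RIP eIF4A2 FL. It was the only tested helicase with 0 counts in both RIP EV libraries, as 18.2% of all tested genes were. With 3 counts over both libraries as the floor, its 270 counts in RIP eIF4A2 FL were at least 22.9-fold above RIP EV, and its 196 counts in input EV at least 33.6-fold. The interaction in log2 was 9.33 (edgeR quasi-likelihood, Benjamini-Hochberg adjusted p 0.0181, 0.000105 to 0.0747 over the alternatives), a size set by the 0 counts. It was 9.93 without input eIF4A2 FL replicate 2. Without any 1 of the 4 inputs or the 2 RIP eIF4A2 FL libraries the call was lost at a log2 of 8.80 to 9.93, and in 5 of these 6 settings 0 of all tested genes were called. In the eIF4A2 FL cells RIP and input of *Ddx25* overlapped, so it was the loss in RIP EV that set the cell lines apart.

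*Ddx59*, a gene linked in people to a syndrome of mouth, face and digits and chosen after its values were seen, had 10.7 and 12.8 CPM in input EV, 10.8 and 11.1 in input eIF4A2 FL, 0 and 0.299 in the RIP EV pair, and 26.9 and 17.1 in RIP eIF4A2 FL. RIP eIF4A2 FL was above all inputs and RIP EV far below them. RIP EV held 1 count in total against 472 in RIP eIF4A2 FL, a ratio per gene read of 120 with a 95% exact counting interval of 21.5 to 4754. The interaction in log2 was 6.62 ± 1.28 (edgeR quasi-likelihood, Benjamini-Hochberg adjusted p 0.0178, 7.71e-05 to 0.0804 over the alternatives). It was 5.95 without RIP EV replicate 1 and 10.07 without RIP EV replicate 2, and in the same 6 settings the call was lost at a log2 of 6.38 or more. The interval and the floors given for these genes cover error of counting alone. They pool the libraries of a group and leave out the spread between them, which was widest in RIP EV. They also take each read as a separate molecule, and the paper names no molecular identifiers.

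Between the inputs of the cell lines, the log2 differences of the tested helicase mRNAs ran from -1.37 to 0.55. By edgeR quasi-likelihood with Benjamini-Hochberg adjustment 0 of 49 were higher and 0 lower in input eIF4A2 FL than in input EV, as were 0% and 0% of all tested genes. DESeq2 called 0 helicases as well, on 4 libraries (of all tested genes 12 higher and 5 lower) or on 8 (11 and 2). At an unadjusted p below 0.05, 0 helicases were higher (3.74% of all tested genes) and 2 lower (3.66%): *Ddx11* (log2 -1.37) and, chosen after its values were seen, *Ddx56* of large ribosomal subunit assembly (log2 -0.74). The median log2 difference was -0.08 for DDX genes, -0.16 for DHX genes and -0.01 for all genes. Without input EV replicate 1 the 2 family medians were 0.16 and 0.07, and without input eIF4A2 FL replicate 2 they were 0.09 and 0.09, so their sign was not settled. The part of the *Ddx11* rise in the RIP that came from a low input eIF4A2 FL cannot be told apart from recovery with eIF4A2.

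RNA helicase genes left off the list, *Ddx6* and the *Eif4a* genes among them, were looked at beside the DDX and DHX genes. Of 23 such genes 19 were tested, and 7 were higher in RIP eIF4A2 FL than in its input by edgeR, with 0 lower and a median log2 change of 0.65 (8.44% of all tested genes were higher and 8.46% lower, with a median of 0.02). Among them were *Upf1* (log2 1.91), *Dicer1* (1.70), *Skiv2l* (1.63), *Aqr* (1.59), *Snrnp200* (1.43) and *Ighmbp2* (1.36). The protein of *Upf1* acts in mRNA decay, that of *Dicer1* in microRNA processing and that of *Snrnp200* in splicing. The same list holds the gene of the bait and its relatives, with log2 changes of -0.65 for *Eif4a2*, 0.24 for *Eif4a1*, -0.44 for *Eif4a3* and 0.50 for *Ddx6*, a helicase of mRNA storage. Higher values in the RIP were found among these helicase genes too, and the difference between the lists was not tested.

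Features of the helicase transcripts were compared with the change from input to RIP eIF4A2 FL. Across all genes longer transcripts had larger changes (Spearman rho 0.361, n 10751). Across the 49 tested helicases rho with length was 0.123, with GC content 0.361 and with input level -0.513 (across all genes 0.175 and -0.172), as a description across genes, which are not independent replicates. DHX transcripts were longer than DDX transcripts (medians 4463 and 3554.5 bases, against 3293 for all). Between 4000 and 5000 bases the median log2 change was 0.83 for 8 DHX genes, 0.13 for 11 DDX genes and 0.18 for all 1590 genes. Above 5000 bases it was 0.45 for 2 DHX genes, 0.11 for 3 DDX genes and 0.46 for all 2377 genes. The part of length in the difference between the families was not tested. Low helicase mRNAs in the input tended to have the larger changes, as *Dhx37*, *Dhx32*, *Dhx35* and *Ddx11* had. Each of these was below 10 CPM in the mean of the 4 inputs. *Dhx8* (39.8 CPM, log2 2.23), *Ddx4* (4.04 CPM, 0.49) and *Ddx43* (5.49 CPM, 0.64) did not follow this order. The eIF4A2 FL inputs enter both quantities.

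Some helicase genes could not be measured well. *Ddx60* (2, 0, 0 and 3 counts in the inputs) and *Dhx58* (7, 3, 2 and 3), both of antiviral defence, failed the filter, and in RIP eIF4A2 FL *Dhx58* had 12 and 11 counts. Exon bases were shared with another gene in 14 helicase genes, within the last 500 bases in 4: *Dhx32* with *Bccip*, *Ddx49* with *Homer3*, *Ddx54* with *Cfap73* and *Ddx17* with *Kdelr3*, all on opposite strands. *Bccip* had a log2 change from input to RIP eIF4A2 FL of -0.54 and *Homer3* of 0.55, each opposite to its helicase neighbour. How alike related helicase genes such as *Ddx19a* and *Ddx19b* are where their tags fall was not measured. The sources used here do not give the strand setting or the annotation release of the counts, so the values of the overlapping helicase genes are less certain.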

How the data were processed

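The authors deposited raw read counts per gene, made from QuantSeq libraries mapped to mm10 with STAR 2.5.3a and counted with HTSeq 0.11.2, and these counts were used without change. Of the 52550 gene identifiers 52403 were matched to GENCODE M21 for gene type, symbol, position and coding sequence. The members and the lists by role were chosen with earlier results of these data known. Genes with at least 1 CPM in all 4 inputs were tested with edgeR 4.0.16 (R 4.3.3), TMM scaling and quasi-likelihood F tests on the 4 libraries of a comparison, with Benjamini-Hochberg adjustment and a threshold of 0.05. Alternatives were DESeq2 1.42.0 on 4 or 8 libraries, edgeR on 8, other scalings and filters, and leaving out single libraries. The interaction on 8 libraries, the read ratio of the families with and without *Ddx21*, and some genes were added after the data had been seen. CPM is counts scaled to the gene reads of a library, ± after a log2 change is its standard error, and averages are over 2 libraries per group. The value of 1 other helicase gene is not reported here.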

Additional observations from a re-analysis of the deposited data

Results flagged for a closer look

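In *Ddx59* the log2 change from input to RIP was larger by 6.62 in the eIF4A2 FL cells than in the EV cells (adjusted p 0.0178 by edgeR quasi-likelihood with Benjamini-Hochberg, 7.71e-05 to 0.0804 over the alternatives). The difference rests on 1 count in RIP EV, and with any 1 of the inputs or of the RIP eIF4A2 FL libraries left out it was not called, at a log2 of 6.38 or more. In 5 of these 6 settings 0 of the 10754 tested genes were called.

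In *Ddx25* this difference was 9.33 in log2 (adjusted p 0.0181 by edgeR quasi-likelihood with Benjamini-Hochberg, 0.000105 to 0.0747 over the alternatives). It rests on 0 counts in both RIP EV libraries, so its size has no upper bound, and in the same 6 settings it was not called, at a log2 of 8.80 to 9.93. The cause was not tested for either gene.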

How the results depend on the processing

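With 2 libraries per group, no protein among the data and RIP EV replicates far apart, both the counts of helicases called and the log2 changes that need RIP EV depended on the method. When 1 of 2 libraries is left out, the other is assumed to vary like the remaining group. The cause of the spread in RIP EV was not tested. Between RIP eIF4A2 FL and its input the DHX median stayed above the DDX median in every alternative. The ratio of the families kept its direction with single libraries left out. DHX reads per 100 DDX reads then differed between RIP eIF4A2 FL and its input by 12.8 to 17.0. Between RIP EV and its input they differed by -18 to -13.0. This ratio of sums follows the most abundant genes. The median log2 changes from input EV to RIP EV were 0.68 for DDX and 0.66 for DHX genes.

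Helicases called between RIP eIF4A2 FL and its input were 5 (of all tested genes 908 higher and 910 lower), and 0 with edgeR on all 8 libraries (of all 0 and 6), 0 with DESeq2 on all 8 (274 and 430), 16 with library size alone (1933 and 567) and 9 without a filter (1408 and 1099). With single libraries left out they were 2 (without RIP eIF4A2 FL replicate 2, of all 403 and 455) to 14 (without input eIF4A2 FL replicate 1, of all 1314 and 1108). Among the helicases called without input eIF4A2 FL replicate 2 were DDX genes that were lower, such as *Ddx52* (log2 -1.26) and *Ddx3x* (-0.998). Between the RIPs they were 0, and 9 with edgeR on 8, 9 with DESeq2 on 4, 14 with DESeq2 on 8, and 0 (with either RIP eIF4A2 FL library left out) to 33 (without RIP EV replicate 2, of all 6349 higher and 2000 lower). Between RIP EV and input EV they were 0, and 9 with edgeR on 8, 6 with DESeq2 on 4, 14 with DESeq2 on 8, and 0 to 32 (without RIP EV replicate 2, of all 1747 and 6483). Between the inputs they were 0, with a DDX gene called lower without input eIF4A2 FL replicate 1 (DDX median -0.30, all genes -0.03). With DESeq2 on 4 or 8 libraries they were 0 as well (of all 12 higher and 5 lower, and 11 and 2). For the difference between the cell lines they were 2, and 8 with DESeq2 (of which 4 were DDX genes called lower; of all 2631 higher and 608 lower), 4 with library size alone (of all 2217 and 166), and 0 (without any 1 input or RIP eIF4A2 FL library) to 23 (without RIP EV replicate 2, of all 5806 and 1337).

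Some log2 changes that had not passed the test changed sign. Between the RIPs they became, with library size alone, 0.00488 for *Ddx11*, 0.16 for *Ddx24*, 0.0384 for *Ddx49*, 0.21 for *Dhx15*, 0.0941 for *Dhx32*, 0.22 for *Dhx35* and 0.0624 for *Dhx57*. With filterByExpr they became 0.0361 for *Dhx15* and 0.0437 for *Dhx35*, and without a filter 0.0172 for *Ddx24*, 0.0654 for *Dhx15* and 0.0629 for *Dhx35*. With single libraries left out, the log2 change from input to RIP eIF4A2 FL ran from -0.34 to 0.82 for *Ddx21*, -0.13 to 0.30 for *Ddx24*, -0.25 to 0.45 for *Ddx27* and -0.20 to 0.45 for *Dhx33*. The log2 difference between the RIPs ran from -1.80 to 0.19 for *Ddx23*, -0.38 to 0.32 for *Ddx24*, -1.30 to 0.59 for *Ddx3x*, -0.44 to 0.11 for *Ddx49*, -0.26 to 0.38 for *Ddx51*, -0.29 to 0.13 for *Dhx15*, -0.23 to 0.77 for *Dhx16*, -1.16 to 10.32 for *Dhx32*, -1.36 to 2.92 for *Dhx33*, -0.42 to 0.57 for *Dhx35*, -2.71 to 4.59 for *Dhx37*, -0.0345 to 2.17 for *Dhx38*, -1.50 to 0.65 for *Dhx40* and -1.14 to 10.08 for *Dhx57*. The widest of these came where the RIP EV library left in held 0 counts, replicate 1 for *Dhx32* and replicate 2 for *Dhx57*.

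No label says whether an input and a RIP with the same replicate number share a clone or lysate, and over the tested genes the deviations of libraries with the same number correlated at -0.00749, -0.0272, 0.0215 and 0.127 in the 4 comparisons. With the number as a replicate block 4 helicases were called between RIP eIF4A2 FL and its input, without *Dhx32* (edgeR quasi-likelihood, Benjamini-Hochberg adjusted p 0.0543, 0.00312 to 1 over the alternatives), 3 between the RIPs, 2 between RIP EV and input EV and 0 between the inputs. Of all tested genes 749 were then higher and 699 lower, 210 and 171, 154 and 272, and 39 and 22, in the same order. Between the RIPs the log2 differences then became 2.66 for *Dhx32*, 0.75 for *Dhx33*, 0.0741 for *Dhx35*, 0.68 for *Dhx37* and 2.82 for *Dhx57*. The DHX median between RIP EV and input EV became -0.93 with this block.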
